A study of Mus musculus with 2 samples.

Results

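The adaptor protein STAP-2 and 9 other proteins that carry signals from the macrophage colony-stimulating factor (M-CSF) receptor were examined at the level of their mRNA in primary and self-renewing mouse macrophages. The 10 genes, Stap1, Stap2, Grb2, Gab1, Gab2, Cbl, Inpp5d, Pik3cd, Dok1 and Dok2, were taken by name from 22906 genes that could be named on the array, and they were measured by 15 of 32983 named probes. The set was chosen from the same contrast that is described here, with the difference in Stap2 already known, so the values of the members are a description and were not tested.

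RNA was compared between primary macrophages, collected on day 5 of culture, and self-renewing macrophages, collected after passage 4. Both were grown from total bone marrow of C57BL/6 mice, labelled male for each sample. The medium held 10% serum and 100 ng/ml recombinant human M-CSF for both, so each received a ligand of the receptor. Activity of the receptor was not measured. Each cell type was measured on 1 Agilent mouse expression array with 1 dye, from total RNA, and no cloning or sorting of the cells is named in the labels. As there was a single array for each, no spread between cultures could be estimated, and none of the differences was tested. How many mice or cultures lay behind each array is not given in the sources used here.

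M-CSF binds its receptor, the tyrosine kinase Csf1r (c-Fms), and is the main survival, growth and differentiation factor of macrophages. On binding, tyrosines of the receptor are phosphorylated and serve as docking sites for proteins with SH2 domains, among them adaptors, which have no enzyme activity and bring enzymes to the receptor. Grb2 links the receptor to Ras and the MAP kinases, the Gab proteins and PI3K act on the AKT route, and Cbl, SHIP1 (Inpp5d) and the Dok proteins limit the signal. STAP-1 and STAP-2 are adaptors with a pleckstrin homology domain and a region like an SH2 domain. STAP-2 was found as a protein that binds c-Fms, is a substrate of the kinase BRK (Ptk6), and binds STAT3, STAT5 and MyD88.

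The genomic start regions of Stap2 are printed because this was the gene that differed most among the members, and that of Inpp5d because it held more ETS letters than the other windows of members. Windows of 250 bases before and 50 bases after an annotated start were taken from RefSeq (GRCm38.p6), which gave 11 windows for 6 of the 10 members. Capitals mark the letters AGGAAGT, an ETS motif of the kind that the macrophage factor PU.1 binds, and CACCC, a box bound by KLF factors, found on either strand. The letters TGCTGAC, a half-site for Maf factors, were searched as well. Stap2 has 2 annotated starts, both on the minus strand of chromosome 17, at chr17:56005557-56005856 and chr17:56008087-56008386, and the Inpp5d window lies on the plus strand at chr1:87620062-87620361. The sequences are written 5′ to 3′ in the direction of transcription.
Stap2, first window: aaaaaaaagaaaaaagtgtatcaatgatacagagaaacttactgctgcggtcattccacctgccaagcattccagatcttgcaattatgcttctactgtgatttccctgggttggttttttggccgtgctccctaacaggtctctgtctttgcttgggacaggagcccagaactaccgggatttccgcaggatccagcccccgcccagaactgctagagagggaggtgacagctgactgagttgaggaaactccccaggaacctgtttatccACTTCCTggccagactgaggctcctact
Stap2, second window: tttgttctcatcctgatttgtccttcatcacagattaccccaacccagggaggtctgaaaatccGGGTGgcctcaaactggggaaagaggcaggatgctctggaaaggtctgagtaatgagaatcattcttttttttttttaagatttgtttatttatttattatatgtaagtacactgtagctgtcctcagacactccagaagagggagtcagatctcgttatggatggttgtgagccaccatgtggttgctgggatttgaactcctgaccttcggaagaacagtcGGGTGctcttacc
Inpp5d: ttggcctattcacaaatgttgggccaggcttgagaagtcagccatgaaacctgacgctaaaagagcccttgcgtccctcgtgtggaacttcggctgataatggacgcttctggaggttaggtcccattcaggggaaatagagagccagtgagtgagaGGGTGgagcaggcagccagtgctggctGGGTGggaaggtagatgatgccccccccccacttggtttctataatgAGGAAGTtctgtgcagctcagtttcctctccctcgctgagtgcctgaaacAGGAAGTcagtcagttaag

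The first Stap2 window held 1 ETS match, on the strand opposite to transcription, which began at position 23 after the start, and no CACCC box. The second held 2 CACCC boxes, at positions -186 and 38, and no ETS match. In the Inpp5d window ETS matches began at positions -19 and 32. The ETS letters were in 9.35% of all 32817 windows of the same length and in 3 of the 11 windows of the members (Grb2, Inpp5d and Stap2), the CACCC box was in 57.5% of all windows and 10 of 11, and the Maf letters were in 4.67% of all windows and in 2 overlapping windows of Gab1. No matches of different motifs overlapped. The letters were chosen with the windows in hand, and the 2 windows of Gab1 overlap, so nothing is read from these shares. These matches describe letters only, and the arrays do not tell which start of Stap2 was used.

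Levels are given as the intensity of a spot after the scanner's background correction, and as log2 of that intensity relative to the 75th percentile of the gene probes on the same array, which stood at 434 on the primary and 446 on the self-renewing array. A difference is the level in self-renewing minus that in primary macrophages, so that 1 unit is a 2-fold difference. The error after ± is the scanner's own estimate for 1 spot, which does not include the spread between cultures. Of 56598 gene probes compared, 34808 were flagged by the scanner as well above background for primary and 33095 for self-renewing macrophages, and no gene spot was saturated. The SD of the difference between probes of the same gene was 0.33 over 5077 genes, and probes repeated on an array had a median SD of 0.042 and 0.046 between spots. Probes differ in how brightly they bind, so members were not ranked by level, and a percentile or a summed level over probes describes signal and not the amount of RNA.

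The libraries were checked against their labels first. All 10 macrophage markers were well above background on both arrays, with a summed level of 889 times the 75th percentile in primary and 1214 in self-renewing macrophages. Against the label of male mice, the 4 Y-linked genes examined passed the background flag only in self-renewing and Xist only in primary macrophages. The 4 Y-linked genes were at least 10.9-fold to at least 157-fold higher in self-renewing and Xist at least 38.1-fold higher in primary macrophages, so the RNA of the primary sample went against its male label. An effect of sex on other genes, the members included, cannot be told apart here from the difference between the cell types. Of 10 neutrophil markers 9 were detected and 7 were at least 2-fold lower in self-renewing macrophages, with a summed level of 119 against 6.56. The primary sum rested mostly on a few bright markers, and the self-renewing sum mostly on a marker that was not 2-fold lower. Of 8 B cell markers 6 were detected and 2 were at least 2-fold lower, with 2.17 against 0.508, a sum that rested mostly on Cd79b. Of 8 markers of each other class, 5 of T cells, 3 of epithelial cells, 2 of fibroblasts and 5 of progenitors and mast cells were detected, with summed levels of 8.24, 0.346, 0.151 and 0.565 in primary and 7.97, 0.314, 0.203 and 0.295 in self-renewing macrophages. In such bulk samples fewer cells of a type and less RNA per cell cannot be told apart.

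All 10 members were well above background on both arrays with each of their 15 probes. Stap2 alone was at least 2-fold higher in self-renewing macrophages, and no member was at least 2-fold lower. Among the 15512 named genes detected on at least 1 array, 4.76% were higher by 2-fold or more in self-renewing macrophages and 8.38% were lower by as much. As Stap2 was picked on this contrast, nothing is read from the count of 1 in 10. The median difference of the members was 0.16, and 0.14 without Stap2, beside -0.02 over all named genes.

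Stap2 had an intensity of 50.5 ± 5.65 in primary and 4004 ± 400.4 in self-renewing macrophages. These were levels of -3.10 and 3.17, a difference of 6.27 ± 0.22 and thus a 77.0-fold higher intensity in self-renewing macrophages. If the primary value were 1 scanner error higher and the self-renewing value 1 lower, it would still be 62.3-fold. Its intensity was at percentile 53.2 of the gene probes in primary and at percentile 91.5 in self-renewing macrophages. The measurement rests on 1 probe in 1 spot per array, so there is no second probe to set beside it.

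The primary value of Stap2 was dim but above the background of its array. Before subtraction the spot had a brightness of 95.5 over a local background of 24.0 in primary macrophages and of 4041 over 24.0 in self-renewing macrophages. The processed intensity was 4.28-fold above the lowest intensity flagged as well above background among the primary spots, and 304-fold above it among the self-renewing spots. The 308 negative control spots reached at most 11.7 and 35.0 on these arrays, which is below the Stap2 spot on each. As the denominator of the fold change was dim, the size depended on such choices. A normexp correction, which models the background and adds an offset of 50, gave a difference of 4.99. The part of the offset in this was not separated from that of the background model. The scanner's background-subtracted signal, before its detrending within the array, gave 6.24. Over 9 alternative settings the difference of Stap2 lay between 4.99 and 6.46. Those that change which genes pass the background flag, or average over probes, could not alter it.

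**Figure D1:**
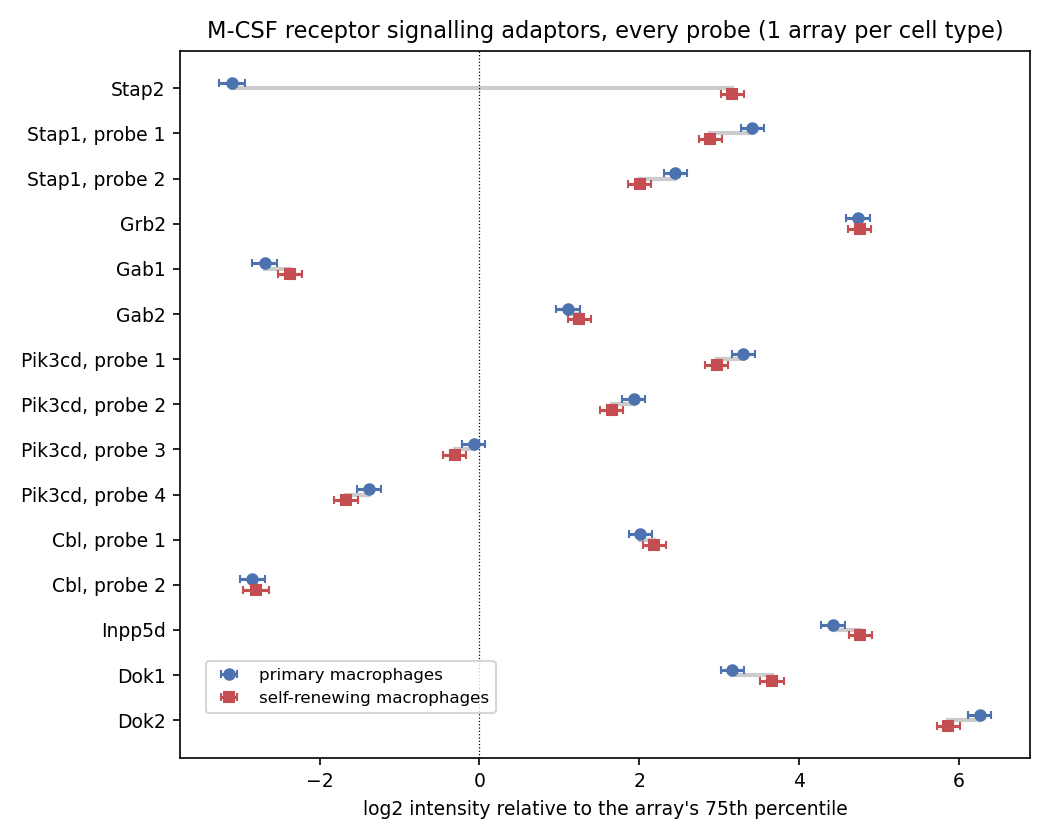
Log2 intensity, with the 75th percentile of the same array set to 0, for each of the 15 probes of the 10 members, in primary (circles) and self-renewing macrophages (squares), with bars for the scanner's error of 1 spot. Stap2 lies at -3.10 and 3.17, while for the 9 other members the values of the 2 arrays lie within 0.52 of each other.

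Stap1, the closest relative of Stap2, was first described as a docking protein downstream of the kinase Tec and differed the other way. Its first probe had an intensity of 4623 ± 462 in primary and 3313 ± 331 in self-renewing macrophages, a difference of -0.52 ± 0.20 or 1.44-fold lower. Its second probe gave 2375 and 1791, a difference of -0.45. Both probes were thus lower in self-renewing macrophages by similar amounts, and in primary macrophages they lay at levels of 3.41 and 2.45. Stap1 is also expressed in B cells. Of the 6 detected B cell markers 2, among them Cd79b, were lower by at least 2-fold in self-renewing macrophages, while Pax5 and Cr2 both differed by -0.03 and Cd79a by 0.41, and their part in the Stap1 difference was not tested. Of the genes detected on both arrays, 74.4% differed by less than Stap1 did.

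Grb2 and the Gab proteins, which lead from the receptor to Ras and PI3K, differed little. Grb2, the adaptor that binds the Ras activator Sos, had 11593 ± 1159 and 12102 ± 1210, a difference of 0.02 ± 0.20. The docking protein Gab1 was dim in both, with 67.2 ± 7.27 and 86.3 ± 9.16, a difference of 0.32 ± 0.22 or 1.25-fold. Gab2, which binds PI3K and the phosphatase SHP-2 in macrophages, had 935 ± 93.6 and 1063 ± 106, a difference of 0.14 ± 0.20. All 3 were higher in self-renewing macrophages, and for Grb2 and Gab2 the difference was smaller than the scanner's error.

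Pik3cd encodes the catalytic subunit of PI3K that is enriched in leukocytes, and it was the member with the most probes. Its 4 probes had intensities of 4278, 1656, 412 and 166 in primary and of 3494, 1405, 360 and 140.2 in self-renewing macrophages. The differences were -0.33, -0.28, -0.23 and -0.28, each with a scanner error of 0.20 to 0.21. All 4 probes were lower in self-renewing macrophages, and they differed among themselves by less than the SD of 0.33 between probes of a gene.

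The members that limit the signal did not share a direction. Cbl, the ubiquitin ligase that marks the activated receptor for degradation, had 1753 ± 175 and 2031 ± 203 at its brighter probe, a difference of 0.17 ± 0.20, and 60.3 and 64.2 at the other, a difference of 0.05. Inpp5d, which encodes SHIP1, the phosphatase that removes the lipid product of PI3K in blood cells, had 9331 ± 933 and 12168 ± 1217, a difference of 0.34 ± 0.20 or 1.27-fold. Dok1 and Dok2 are adaptors that bring a Ras inhibitor, RasGAP, to activated receptors. Dok1 had 3899 ± 389.95 and 5654 ± 565 and was 1.41-fold higher in self-renewing macrophages, a difference of 0.50 ± 0.20. Its relative Dok2 was lower, with 33317 ± 3332 and 26084 ± 2608, a difference of -0.39 ± 0.20 or 1.31-fold. This pair of relatives, like the pair of STAP proteins, thus had opposite signs.

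Ordered by the difference, Stap2 came first by a gap of 5.77, followed by Dok1, Inpp5d, Gab1, Cbl, Gab2, Grb2, Pik3cd, Dok2 and Stap1. Of the 8 adjacent pairs below Stap2 only Grb2 and Pik3cd were further apart than 0.33, by 0.35. That SD is for a single gene and a gap holds the spread of both, so the order of adjacent members below Stap2 was not resolved. Of the 9 members other than Stap2, 6 differed by more than the scanner's error and 5 by more than 0.33. Every member kept its sign under all 9 alternative settings, among them the authors' own scaling, which raised the differences of all genes by a median of 0.19. Settings that change which genes pass the background flag could not alter these differences, as all members passed it on both arrays. The mean over probes could not alter the 7 members with 1 probe. The difference of Grb2 came closest to 0, with a range from 0.00 to 0.21.

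**Figure D2:**
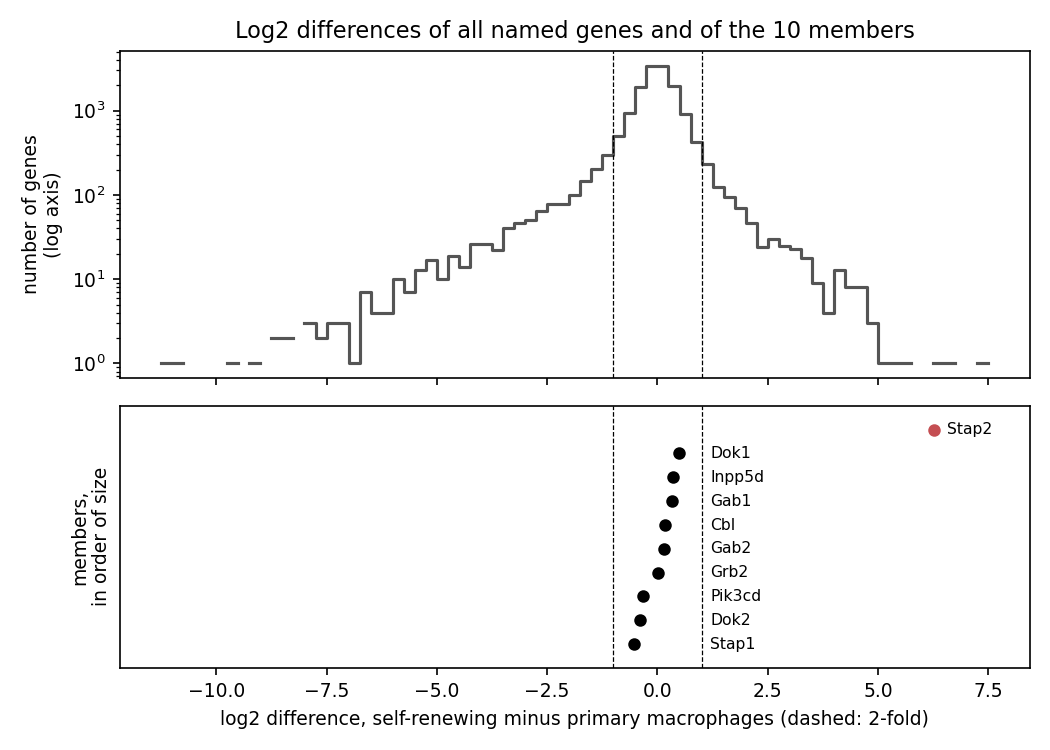
Log2 difference between self-renewing and primary macrophages. The upper panel counts the 15512 named genes detected on at least 1 array in bins of the difference (log axis), and the lower panel shows the 10 members in order, with dashed lines at 2-fold, where Stap2 at 6.27 stands outside and the other 9 lie between -0.52 and 0.50.

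The receptor itself was higher in self-renewing macrophages by less than 2-fold, and its ligands were lower or differed little. Csf1r had an intensity of 113750 in primary and 153276 in self-renewing macrophages, a difference of 0.39, with 0.46 at its second probe. Csf1, which encodes M-CSF, had 167 and 46.8 and was 3.67-fold lower, a difference of -1.88 that ranged from -1.89 to -1.05 over the 9 settings. The other ligand, Il34, was dim, and its difference of 0.02 changed sign under 2 of 9 settings. These 3 genes belong to a list of 64 other genes of the pathway, written with earlier results of these data known, of which 63 were detected. In that list 2 genes (3.17%) were higher by at least 2-fold and 6 (9.52%) were lower by at least 2-fold, close to the shares of 4.76% and 8.38% over all named genes, and the median difference was 0.04.

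Both genes of the list that were at least 2-fold higher encode adaptors, as Stap2 does. Sla encodes the Src-like adaptor protein, which dampens receptor signalling, and had 703 in primary and 1848 in self-renewing macrophages, a difference of 1.35, with 0.69 and 1.51 at its other probes. Nck1, an adaptor with SH2 and SH3 domains that acts on the actin cytoskeleton, had 1231 and 2574, a difference of 1.02, with 1.12 at its second probe. It stayed just under 2-fold, at 0.98, under 1 of 9 settings. Dok3, a relative of Dok1 and Dok2, differed by 0.84, Sh2b3 by 0.72, Tyrobp, which brings the kinase Syk to receptors, by 0.45, and Gab3, a relative of Gab1 and Gab2, by 0.20. All of these were smaller than the difference of Stap2, from which nothing is read, as Stap2 was picked on this contrast.

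Among the 16 adaptors of the list, 2 relatives of Grb2 were lower. Grap had 538 and 69.7 and was 7.93-fold lower in self-renewing macrophages, a difference of -2.99 that ranged from -3.01 to -2.28 over the 9 settings. Grap2 was well above background only on the primary array and was at least 2.77-fold lower, a bound that fell under 2-fold in 2 of 8 settings. Shc1, which recruits Grb2, differed by -0.47. Grb2, Grap and Grap2 share the same arrangement of SH2 and SH3 domains, and of these Grb2 differed least.

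Of the 10 tyrosine kinases, 9 were detected and Yes1 was not. Fgr, a Src family kinase of myeloid cells, was 13.2-fold lower in self-renewing macrophages, with 353 against 27.5, and its second probe gave a difference of -2.72. Its lower value was below the brightest negative control spot of that array, at 35.0, and its difference of -3.73 lay between -3.74 and -2.11 over the 9 settings. Lyn, of the same family, differed by 0.33. Src was dim and differed by -0.56 at its brighter probe and by 0.18 at the other, so its direction was not settled. At the brighter probe its self-renewing intensity of 30.0 was also below that negative control spot. Syk, at -0.14, had the opposite sign under the authors' scaling.

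In the PI3K and AKT group Akt1, a kinase that acts on the products of PI3K, differed by 0.04. Pik3cg, the catalytic subunit that is driven by G protein-coupled receptors, differed by 0.76, in the other direction from Pik3cd. None of the 11 genes of the Ras and MAP kinase group passed 2-fold, nor did any of the 4 phospholipase C and protein kinase C genes, with values from -0.14 to 0.61. As only 4.76% of all named genes were higher and 8.38% lower by at least 2-fold, nothing is read from this. Of the 10 other negative regulators, Cblb, a relative of Cbl, was 3.71-fold lower, with 842 and 233, a difference of -1.89 beside 0.17 for Cbl. Its second probe gave -1.25, and over the 9 settings the difference lay between -1.91 and -1.11. Ptpn6, the phosphatase SHP-1, differed by 0.79 and Ptpn12 by 0.71. The 6 genes that were lower moved in the same direction as most neutrophil markers, of which 7 of 9 detected were at least 2-fold lower. Their summed level was 119 against 6.56 and rested mostly on a few bright markers. Of all named genes 8.38% were lower by as much, so the shared direction singles out no cell type. The part of such cells in these differences was not tested.

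**Figure D3:**
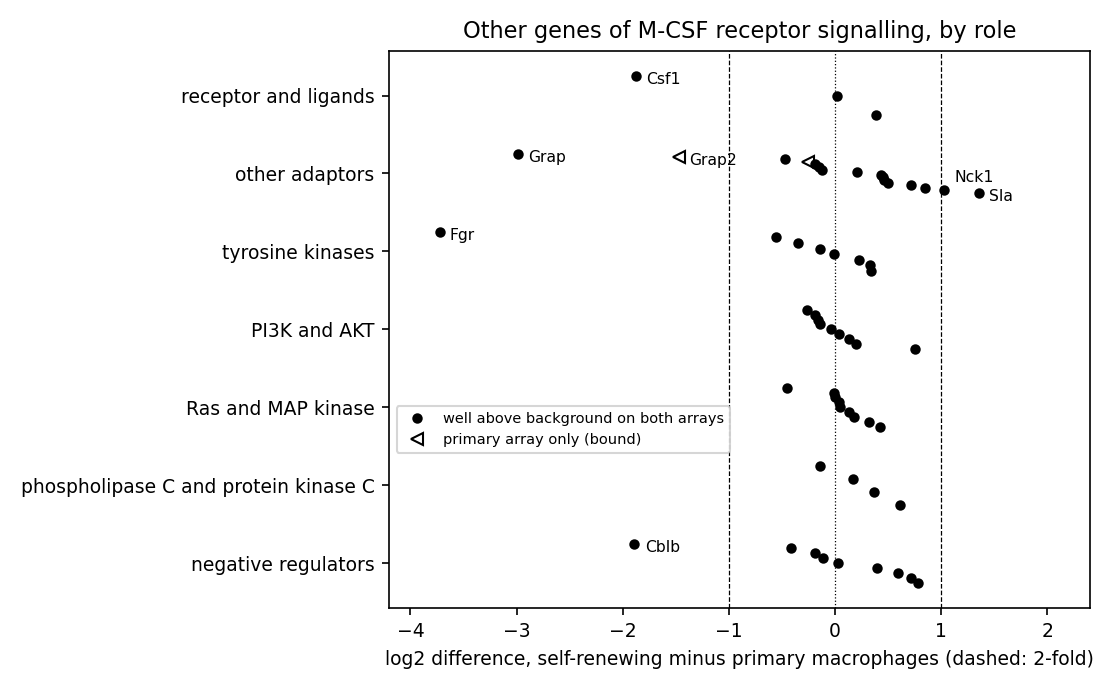
Log2 difference between self-renewing and primary macrophages for 58 of the other M-CSF receptor pathway genes, in 7 roles, with dashed lines at 2-fold. Filled points were well above background on both arrays and open triangles on the primary array only (bounds), and the 7 genes past 2-fold are named, 2 to the right and 5 to the left.

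The detected mRNAs of proteins that STAP-2 is known to bind did not differ by 2-fold. Among all 15512 named genes 13474 were within 2-fold as well, so nothing particular to these genes is read from this. Of 8 such genes 7 were detected on both arrays, while Ptk6, the kinase BRK, was not well above background on either. Stat3 differed by 0.03, Stat5b by -0.10 and Stat5a by -0.11, with -0.77 at the second probe of Stat5a. Myd88, the adaptor of Toll-like receptors, differed by 0.16, and Chuk and Ikbkb, the kinases of IκB, by 0.05 and 0.08. The signs of Stat3, Stat5a, Stat5b and Chuk changed under some settings, in 3 of 9 for Stat3.

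The genes around Stap2 were compared with it. Of the 5 nearest measured genes on each side on chromosome 17, 1 was past 2-fold, and it was lower. This was Chaf1a, a subunit of the chromatin assembly factor that acts with DNA replication, with a difference of -1.22. The adjacent genes were Shd, at -0.44 and dim, and Mpnd, at 0.29. The median of the 10 neighbours was 0.29, and none of them was higher by 2-fold. Over all named genes 4.76% were higher and 8.38% lower by at least 2-fold, so nothing is read from these counts.

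**Figure D4:**
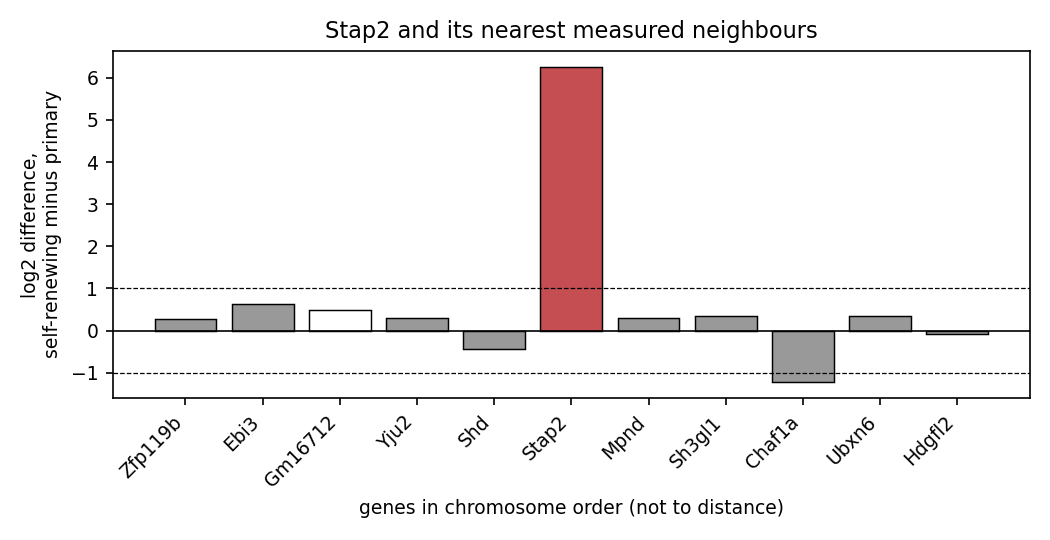
Log2 difference between self-renewing and primary macrophages for Stap2 and the 5 nearest measured genes on each side, in their order on chromosome 17. The bar of Stap2 stands at 6.27, those of its neighbours lie between -1.22 and 0.63, and the unfilled bar (Gm16712) is a bound, as the signal of this gene passed the background flag in self-renewing macrophages alone.

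The genes whose difference was most like that of Stap2, among genes detected on both arrays whose probes all moved the same way, were Vldlr, Cxcl14 and Cdkn2b. Vldlr, the very low density lipoprotein receptor, differed by 5.61, Cxcl14, a chemokine, by 5.37, and Cdkn2b, which encodes a cyclin-dependent kinase inhibitor, by 5.07, each with 2 probes. Their distances from Stap2 were 0.65, 0.89 and 1.19. This likeness is over 2 samples and rests on the single difference between them.

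BRK, which phosphorylates STAP-2, is mainly a kinase of epithelial cells. Of the 8 epithelial markers, 5 (Epcam, Krt8, Krt19, Cdh1 and Elf3) were not well above background on either array, and the 3 detected had a median difference of -0.04 beside 6.27 for Stap2. The macrophage markers had a median difference of 0.39, from -1.76 for Fcgr1 to 2.23 for Mertk. As Stap2 was picked on this contrast, nothing is read from its larger difference.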

How the data were processed

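Total RNA was hybridised to Agilent SurePrint G3 mouse arrays with a single dye, Cy3. Deposited by the authors was the scanner output of Feature Extraction 11.5.1.1, which holds the intensity of each spot, background-subtracted and detrended within the array, its error and its flags. A table of intensity values that the authors deposited as well equals these times 1.07 (primary) and 1.19 (self-renewing), and how these constants were set is not given in the sources used here.

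Here control spots and outlier spots (63 per array) were removed, and log2 intensity was taken relative to each array's 75th percentile. Probes were named through transcript accessions in a RefSeq table of GRCm38.p6, which matched 32983 of 56598 (58.3%). As the array design uses mm9, no probe coordinates are given. The probe with the highest mean signal stood for a gene. Where a gene passed the background flag on 1 array, its difference is a bound: the dim side was set to the lowest flagged signal of its array, or to the probe's own signal if that was higher. Samples were grouped by their labels, and differences are given by size (2-fold), without a test.

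The members, gene lists and marker lists were chosen with earlier results of these data known. Motif letters were chosen with the windows in hand. The rule for named genes took all members with every probe, all listed pathway and partner genes past 2-fold, up to 3 well-known genes for each of 7 roles, 5 neighbours on each side of Stap2, and the 3 genes closest to it in difference whose probes moved the same way. Further genes of these lists (Tyrobp, Sh2b3, Dok3 and Gab3 among them) and markers were named after their values were seen. Results for some genes are not reported here, though the counts over the lists include them.

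The alternatives were normexp (limma 3.58.1, offset 50) on the median spot brightness and local background, quantile normalization, scaling to the median or the 75th percentile of detected probes only, the authors' scaled values, no background filter, only genes detected on both arrays, and the mean over probes. The background-subtracted signal before detrending was added after seeing the data. Scripts were tested on simulated data. Python 3.11.15 with numpy 2.4.6, pandas 2.3.3 and matplotlib 3.10.9 and R 4.3.3 were used.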

Additional observations from a re-analysis of the deposited data

How the results depend on the processing

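The differences of the members kept their direction under all 9 alternatives, and in each of them 1 member was at least 2-fold higher and 0 were at least 2-fold lower. The changes of background filter could not alter the members, and the mean over probes could not alter the 7 with 1 probe. With normexp the difference of Stap2 was 4.99 and 1 pathway gene was at least 2-fold higher. With quantile normalization the median of the pathway genes was 0.10. With the authors' scaled values, which shift all genes by a median of 0.19, the members' median was 0.35, the pathway genes' median 0.23, and 4 pathway genes were at least 2-fold higher. The other 57 values of comparisons and all 81 values of single members stayed within set limits. For a single gene the limit was the spread between probes. For a median it was that spread divided by the square root of the number of genes, and for a count it was 1.5 times. Over all named genes the counts at least 2-fold higher and lower were 738 and 1300, against 428 and 750 with normexp, 1034 and 1069 with the authors' scaling, 1191 and 2335 without a filter, and 587 and 782 with genes detected on both arrays. No paired analysis was possible because the design holds 1 array per group, with no replicate numbers. The precision is limited by the number of arrays, and for the primary value of Stap2 and both values of Gab1 also by dim signals.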
